A study of Arabidopsis thaliana with 24 samples.

Results

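The heavy metal ATPases of Arabidopsis, HMA1 to HMA8, are the P-type ATPases that pump zinc, cadmium or copper across membranes. The 8 genes were taken by name, and 7 of them were matched to 8 probe sets of the ATH1 array (sets of short oligonucleotides that measure 1 transcript), out of 22746 probe sets tested. These were HMA1 (AT4G37270), HMA2 (AT4G30110), HMA3 (AT4G30120), HMA4 (AT2G19110), HMA5 (AT1G63440), HMA6 (AT4G33520, with 2 probe sets, called here the brighter and the dimmer one) and HMA7 (AT5G44790). HMA8 (AT5G21930) was matched to no probe set and was not analysed here. HMA2 and HMA3 are neighbours on chromosome 4.

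The study compared wild type Arabidopsis of the Columbia background with nas4x-1, a line of the same background with T-DNA insertions in all 4 nicotianamine synthase genes. Plants of both genotypes grew in hydroponic culture with Fe until an age of 4 weeks and then spent 7 days either with 10 µM FeNa-EDTA (+ Fe) or with 0 µM (- Fe). Roots and rosette leaves were harvested separately at 5 weeks. The experiment was run in 3 successive weeks, which are the 3 biological replicates of each of the 8 groups, giving 24 arrays. The groups are wild-type roots + Fe, wild-type roots - Fe, nas4x-1 roots + Fe, nas4x-1 roots - Fe, and the same 4 in leaves. The medium of all groups held zinc and copper.

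HMA2 and HMA4 are plasma membrane zinc pumps that load zinc into the xylem for transport from root to shoot. HMA3 pumps zinc and cadmium into the vacuole, and the Columbia accession carries a truncated form of it. HMA5, HMA6, HMA7 and HMA8 move copper: HMA5 exports it in roots, HMA6 (PAA1) brings it into chloroplasts, HMA8 (PAA2) brings it into thylakoids for plastocyanin, and HMA7 (RAN1) delivers it to ethylene receptors. HMA1 sits in the chloroplast envelope and has been linked to copper and zinc. Nicotianamine, which nas4x-1 largely lacks, chelates Fe, Cu and Zn, so these pumps share their substrates with the missing chelator.

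The arrays matched their labels as far as the probe sets allowed. The nicotianamine synthase NAS1 lay between 85.8 and 943 on the 12 wild-type arrays and between 5.33 and 31.2 on the 12 nas4x-1 arrays. NAS2 went the other way, with a log2 difference of 2.35 in + Fe leaves, nas4x-1 minus wild type (adjusted p = 0.00392, limma), and this probe set had its higher signals in the mutant. Over both Fe supplies, 1 of the 4 nicotianamine synthases was lower in nas4x-1 roots at an adjusted p under 0.05 (limma, 0.136% of all probe sets). In leaves 2 of 4 were lower and 1 was higher (0.106% of all). RCA, a leaf gene for the activation of Rubisco, lay between 3723 and 4770 in leaves and between 29.3 and 103 in roots. It was the 1 gene of 8 leaf markers that was matched to a probe set by name, and none of the 8 root markers was matched. The Fe transporter gene IRT1, used in their place after its values were seen, lay between 222 and 3672 in roots and between 0.241 and 21.3 in leaves. Since it was picked from these values, IRT1 is no independent check of the root labels. Values are normalized signals on a linear scale without counts, so the number of arrays limits the precision. Whether a signal reflects fewer cells of a type or less RNA per cell cannot be told apart in whole organs. Differences were tested with limma on log2(signal + 16), with Benjamini-Hochberg adjustment over all 22746 probe sets and a threshold of 0.05. The added 16 makes a fold change of a dim probe set look smaller than it is.

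**Figure D1:**
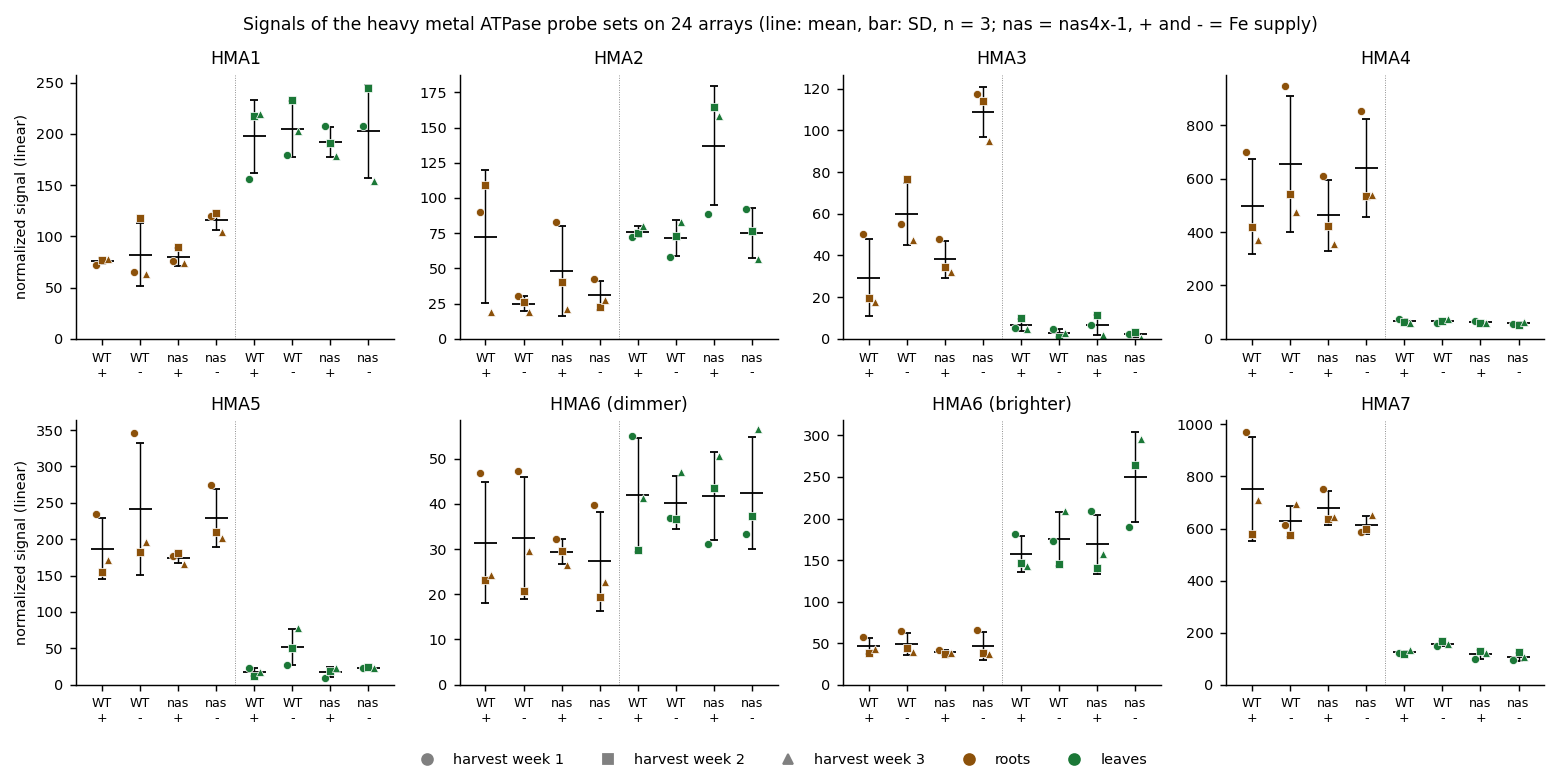
Normalized signal (linear, from 0) of each heavy metal ATPase probe set on each of 24 arrays, by genotype (WT, wild type), organ and Fe supply, with symbols for the harvest week, the mean as a line and the SD as a bar (n = 3). HMA3, HMA4, HMA5 and HMA7 were brighter in roots, HMA1 and 1 of the 2 HMA6 probe sets in leaves, and the second HMA6 probe set overlapped between organs.

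The clearest pattern of the family was the organ. In wild type at + Fe, 6 of the 8 probe sets passed the test between leaves and roots, where 45.8% of all probe sets passed. Of these, 2 were higher in leaves (20.3% of all) and 4 were lower (25.5% of all). In wild type at - Fe 7 passed, with 3 higher and 4 lower (44.9% of all passed, 19.7% higher and 25.2% lower). In nas4x-1 the count was also 7, with 3 higher and 4 lower, at + Fe (45.6%, with 20.2% higher and 25.4% lower) and at - Fe (44.6%, with 19.7% higher and 25% lower). The share of the family was above that of the array in each comparison, and this was not tested.

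Among the zinc pumps, HMA4 was the one with the largest organ difference. Its signal lay between 356 and 945 on the 12 root arrays and between 53.2 and 75.2 on the 12 leaf arrays. The log2 difference, leaves minus roots, was -2.59 ± 0.248 (SE) in wild type at + Fe (adjusted p = 2.09e-08) and -3.12 ± 0.248 in nas4x-1 at - Fe (adjusted p = 1.07e-09), with -2.96 and -2.58 in the other two groups. No root array of HMA4 reached down to a leaf array. The medians over the 8 probe sets ran from -0.34 to -0.95 in the 4 comparisons, beside -0.01 to -0.04 over all probe sets.

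HMA3, the vacuolar pump, had almost no leaf signal. It lay between 0.65 and 11.4 in leaves, a range below the level of 29.9 that 40% of probe sets did not reach on average, and between 17.9 and 117 in roots. The log2 difference was -0.93 ± 0.22 in wild type at + Fe (adjusted p = 0.00142), -2.00 ± 0.22 in wild type at - Fe (1.73e-07), -1.27 ± 0.22 in nas4x-1 at + Fe (6.43e-05) and -2.78 ± 0.22 in nas4x-1 at - Fe (1.05e-09). The gap between the organs was wider at - Fe in both genotypes, where the root means were 59.8 and 109 beside 29.3 and 38.1 at + Fe. The change of that gap with Fe supply, tested as a contrast added after the values were seen, was -1.06 in wild type (adjusted p = 0.37) and -1.51 in nas4x-1 (adjusted p = 0.147), where 0.0879% and 0.0044% of all probe sets passed. The nas4x-1 value had an adjusted p of 0.0364 when the week was a block, and without wild-type roots + Fe replicate 1 the wild-type value was -1.38 with an adjusted p of 0.0412.

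HMA2, the other zinc pump of the xylem, did not follow HMA4. Over 24 arrays it lay between 19 and 165, and the leaf arrays (57 to 165) overlapped the root arrays (19 to 109). The log2 difference between leaves and roots was 0.25 ± 0.373 in wild type at + Fe (95% interval -0.53 to 1.03, adjusted p = 0.633). It was 1.09 ± 0.373 in wild type at - Fe (0.0216), 1.33 ± 0.373 in nas4x-1 at + Fe (0.00591) and 0.96 ± 0.373 in nas4x-1 at - Fe (0.0415). Each of these 3 calls depended on single arrays. The call in wild type at - Fe was lost without wild-type roots - Fe replicate 3 (adjusted p = 0.0748) and without replicate 2 (0.0529) or 3 (0.0707) of wild-type leaves - Fe, and that in nas4x-1 at + Fe without nas4x-1 roots + Fe replicate 3 (0.0506). The call in nas4x-1 at - Fe was lost without replicate 2 (0.13) or 3 (0.0959) of nas4x-1 roots - Fe and without replicate 1 (0.13) or 2 (0.0884) of nas4x-1 leaves - Fe, and in an analysis of variance after the study's methods (0.0873). A change of the HMA2 organ difference with genotype at + Fe was 1.08 ± 0.528 (adjusted p = 1, where 0.0703% of probe sets passed).

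The copper pumps divided in the same manner. HMA5 lay between 155 and 347 in roots and between 9.59 and 78 in leaves, and its log2 difference was between -2.63 ± 0.251 in nas4x-1 at - Fe (adjusted p = 1.93e-08) and -1.94 ± 0.251 in wild type at - Fe (1.65e-06). HMA7 lay between 574 and 972 in roots and between 93.6 and 167 in leaves, with log2 differences from -2.42 ± 0.154 in wild type at + Fe (3.34e-11) to -1.88 ± 0.154 in wild type at - Fe (1.75e-09). For HMA5 and HMA7 the smallest gap was the one in wild type at - Fe, the group with the highest leaf signals of each. HMA1 of the chloroplast envelope was higher in leaves (154 to 245) than in roots (63.5 to 122), by 1.20, 1.21, 1.12 and 0.71 in wild type at + Fe and - Fe and nas4x-1 at + Fe and - Fe (each ± 0.188, adjusted p at most 0.00377). The call in nas4x-1 at - Fe was lost in the analysis of variance after the methods (adjusted p = 0.0645).

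The 2 probe sets of HMA6, the chloroplast copper pump, gave different answers. With the brighter one the leaf signals (141 to 295) stood above the root signals (36.4 to 65.8), and the log2 difference went from 1.48 ± 0.207 in wild type at + Fe (adjusted p = 4.4e-06) to 2.09 ± 0.207 in nas4x-1 at - Fe (3.12e-08). With the dimmer one the leaf signals (29.8 to 56.5) overlapped the root signals (19.4 to 47.3), the differences were between 0.24 and 0.44, and none passed (smallest adjusted p = 0.146). Which of them reads the HMA6 transcript was not tested, since the probe sequences were not used here.

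**Figure D2:**
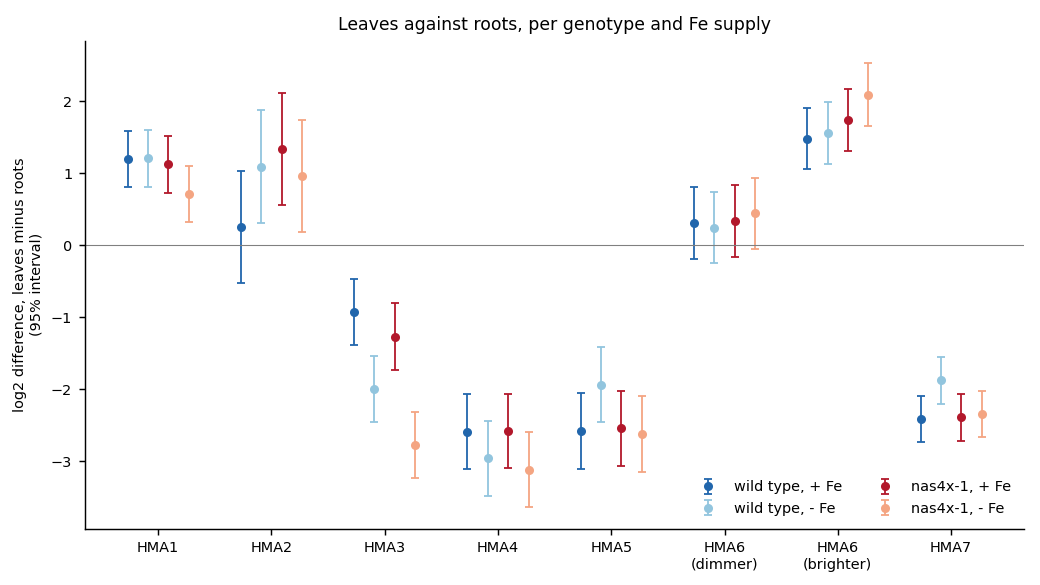
Log2 difference between leaves and roots (leaves minus roots, points, with 95% intervals of the limma fit) for each probe set, in wild type and nas4x-1 at + Fe and - Fe. HMA3, HMA4, HMA5 and HMA7 lie below 0 in all 4 comparisons, HMA1 and HMA6 (brighter) above 0, and the HMA3 values at - Fe (-2.00 and -2.78) lie below those at + Fe (-0.93 and -1.27).

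The Fe supply and the genotype were compared within each organ in 14 comparisons, of which 8 were between a pair of groups. No heavy metal ATPase passed the test in any of them, neither with limma without a block nor with an analysis of variance after the study's methods. With the harvest week as a block HMA3 passed in limma for the mean Fe difference in roots (adjusted p = 0.0266). The study itself lists HMA5 among the genes that its own analysis of variance called in its pairwise comparisons. The analysis of variance used here was a re-implementation and did not reproduce that call. The numbers at an unadjusted p under 0.05 are given with each comparison below. With 3 arrays against 3, an exact permutation test of a single gene cannot go below p = 0.1. The pairwise comparisons of an organ share arrays, so each is given with its own values.

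In roots, the question was whether the pumps follow the Fe supply. In wild type, 0 of 8 probe sets passed between - Fe and + Fe, as did 0% of all probe sets, with 1 of 8 (HMA3) and 4.39% of all at an unadjusted p under 0.05. In nas4x-1, 0 of 8 passed (0.0132% of all), with 2 (HMA1 and HMA3) and 3.61% at an unadjusted p under 0.05. The median log2 difference of the 8 probe sets was 0.05 in wild type and 0.25 in nas4x-1, beside -0.02 and -0.00 over all probe sets.

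HMA3 had the largest difference of the family in roots. In nas4x-1 its signals in weeks 1, 2 and 3 were 48, 34.3 and 31.9 at + Fe and 117, 114 and 94.9 at - Fe. The 2 groups did not overlap, with means of 38.1 ± 8.71 and 109 ± 12 (SD, n = 3), and the difference had the same sign in 3 of 3 weeks (log2 1.06, 1.37 and 1.21). The fitted log2 difference was 1.21 ± 0.254 (SE, adjusted p = 0.476, limma). In wild type the signals were 50.5, 19.4 and 17.9 at + Fe and 55.2, 76.4 and 47.7 at - Fe. Here the groups overlapped through week 1 at + Fe, and the weekly differences were 0.10, 1.39 and 0.91, with a fitted value of 0.80 ± 0.254 (adjusted p = 1).

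Averaged over both genotypes, HMA3 differed by 1.01 ± 0.18 between - Fe and + Fe (95% interval 0.61 to 1.40, adjusted p = 0.0852), where 0.0528% of all probe sets and 0 of the 8 passed, with 1 of 8 and 6.54% of all at an unadjusted p under 0.05. This value was close to the threshold. With the harvest week as a block it was 1.01 ± 0.146 with an adjusted p of 0.0266, and 0.47% of all probe sets passed. Without wild-type roots + Fe replicate 1 it was 1.16 (adjusted p = 0.0139), and without wild-type roots - Fe replicate 3 it was 1.06 (adjusted p = 0.0437). The interaction of genotype and Fe supply was 0.42 ± 0.36 for HMA3 (95% interval -0.37 to 1.20, adjusted p = 1), so a difference of the Fe response between the genotypes was not detectable.

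The wild-type + Fe root array of week 1, on which HMA3 was high, was also high for IRT1 and MTP3, which were picked after the values were seen. IRT1, which takes up Fe and also Zn from the medium, measured 1262 there and 222 and 249 in weeks 2 and 3. MTP3, which moves zinc into root vacuoles under Fe deficiency, measured 310 there and 99.6 and 136 in the other weeks. The zinc transporter gene ZIP2 was also highest there, at 107 beside 53.6 and 39.9. Its wild-type root mean went the other way with Fe supply, with 66.9 at + Fe and 9.94 at - Fe. The part of the Fe state of these plants in the HMA3 value was not tested. Over the 12 root arrays, HMA3 and MTP3 had a Pearson r of 0.928 (Spearman 0.811) and HMA3 and IRT1 one of 0.885 (0.846). Without the 2 arrays farthest from the median of MTP3 or IRT1 the r was 0.877 and 0.794, and for MTP3 the r of the deviations from the group means was 0.784. Of the 17 zinc genes measured, MTP3 had the highest r with HMA3, followed by the zinc transporter gene ZIP9 (0.892). For ZIP9 the r of the deviations from the group means was only 0.385. That value was highest for bZIP19 (0.842), whose r over the arrays was 0.573. These pairs were looked at after the values were seen, and the arrays share their groups and harvest weeks.

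**Figure D3:**
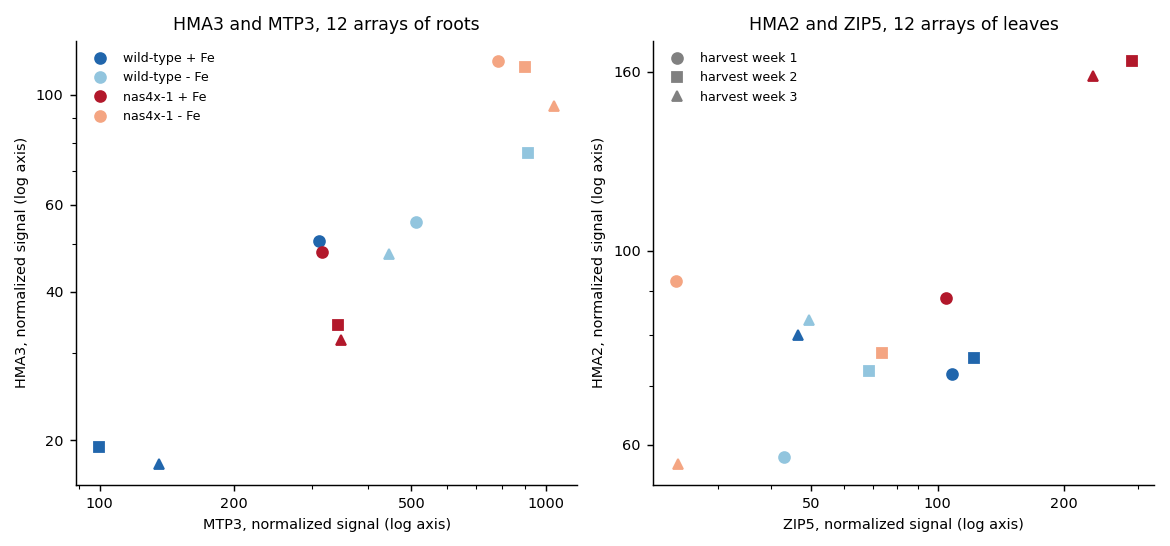
Signals of HMA3 against MTP3 on the 12 root arrays (left) and of HMA2 against ZIP5 on the 12 leaf arrays (right), both axes logarithmic, coloured by genotype and Fe supply with symbols for harvest week. The root arrays run from 17.9 to 117 for HMA3 with MTP3 from 99.6 to 1047 (r = 0.928), whereas the leaf relation (r = 0.765) rests on the 2 nas4x-1 + Fe arrays at the upper right.

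HMA2 had lower means at - Fe in roots, with a wide spread. Its signals in wild type were 89.8, 109 and 19 at + Fe and 30.1, 26.2 and 19 at - Fe, so week 3 was low in both. The fitted log2 difference was -0.92 ± 0.45 (95% interval -1.91 to 0.06, adjusted p = 1), with weekly values of -1.20, -1.57 and -0.00. In nas4x-1 roots the signals were 83.2, 40.6 and 21.1 at + Fe and 42.5, 22.6 and 27.7 at - Fe, which overlap, with a fitted value of -0.36 ± 0.45 (adjusted p = 1). The mean over both genotypes was -0.64 ± 0.318 (adjusted p = 0.793), and the interaction was 0.56 ± 0.636 (adjusted p = 1). HMA4, the other xylem pump, was slightly higher at - Fe in each of 3 weeks in both genotypes, by 0.38 ± 0.316 in wild type and 0.46 ± 0.316 in nas4x-1 (both adjusted p = 1), and the groups overlapped, with week 1 the highest in each. Its weekly differences were 0.43, 0.36 and 0.34 in wild type and 0.48, 0.33 and 0.57 in nas4x-1. Averaged over both genotypes HMA4 differed by 0.42 ± 0.223 (adjusted p = 0.815, limma). With the harvest week as a block this was 0.42 ± 0.0788 (adjusted p = 0.0537, limma), which did not pass.

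The copper pump HMA5 had root signals of 235, 155 and 171 in wild type at + Fe and of 347, 183 and 196 at - Fe. In nas4x-1 they were 177, 181 and 166 at + Fe and 275, 211 and 201 at - Fe. The signals at - Fe were higher in 3 of 3 weeks in each genotype, without overlap only in nas4x-1, and the fitted values were 0.31 ± 0.229 and 0.35 ± 0.229 (both adjusted p = 1). In nas4x-1 roots, 3 of 8 probe sets (HMA1, HMA3 and HMA5) were higher at - Fe without overlap, beside 4.62% of all probe sets, and 0 were lower (5.1% of all). In wild-type roots 0 of 8 were without overlap in either direction (3.58% and 4.46% of all). HMA1 in nas4x-1 roots measured 76.2, 89.6 and 73.9 at + Fe and 120, 122 and 105 at - Fe (log2 0.46 ± 0.191, adjusted p = 1). HMA6 and HMA7 differed with Fe supply by between -0.23 and 0.16 in roots of both genotypes.

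The genotypes were compared in roots at each Fe supply. At + Fe, 0 of 8 probe sets passed (0.0703% of all) and 0 of 8 had an unadjusted p under 0.05 (1.96% of all), and the differences ran from -0.39 for HMA2 to 0.32 for HMA3. None of the 8 was without overlap in either direction (3.23% of all higher, 2.99% lower). At - Fe, 0 passed (0.0747% of all), with 2 (HMA1 and HMA3) at an unadjusted p under 0.05 (2.65% of all). HMA3 was here higher in nas4x-1 in 3 of 3 weeks and without overlap, 1 of 8 probe sets against 3.01% of all (0 lower, against 2.36%), with a log2 difference of 0.73 ± 0.254 (adjusted p = 1). Averaged over both Fe supplies it differed by 0.52 ± 0.18 between the genotypes (adjusted p = 1), where 0 of 8 and 0.136% of all passed, with 1 of 8 and 2.62% of all at an unadjusted p under 0.05. In the interaction 0 of 8 and 0% of all passed, with 0 of 8 and 1.53% of all at an unadjusted p under 0.05.

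In leaves the largest difference with Fe supply was that of HMA5 in wild type. Its signals there were 22.6, 12.4 and 18.1 at + Fe and 27.5, 50.2 and 78 at - Fe. The groups did not overlap, with means of 17.7 ± 5.14 and 51.9 ± 25.3, but week 1 contributed little, as the weekly log2 differences were 0.17, 1.22 and 1.46. The fitted difference was 0.95 ± 0.256 (95% interval 0.39 to 1.51, adjusted p = 0.212), where 0 of 8 and 0.176% of all probe sets passed, with 2 of 8 (HMA5 and HMA7) and 8.73% at an unadjusted p under 0.05. Without wild-type leaves - Fe replicate 1 it was 1.24 and passed (adjusted p = 0.0356).

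In nas4x-1 leaves HMA5 stayed low at both Fe supplies, with 9.59, 19.1 and 22.8 at + Fe and 22.8, 24.2 and 23 at - Fe. These groups overlapped, and the fitted log2 difference was 0.27 ± 0.256 (95% interval -0.29 to 0.83, adjusted p = 0.871). The nas4x-1 leaves at - Fe were all below the wild-type leaves at - Fe, by 0.72 ± 0.256 on the log2 scale (adjusted p = 0.415), with weekly differences of -0.17, -0.72 and -1.27. The interaction was -0.69 ± 0.361 (95% interval -1.48 to 0.11, adjusted p = 0.906), so that the Fe responses of the genotypes were not shown to differ. In this interaction 0 of 8 and 0.0615% of all passed, with 0 of 8 and 5.72% of all at an unadjusted p under 0.05. All leaf signals of HMA5 outside wild-type leaves at - Fe were below the level of 29.9 that 40% of probe sets did not reach on average.

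HMA7, which carries copper to ethylene receptors, had its highest leaf signals in the same group. They were 121, 119 and 132 in wild type at + Fe and 150, 167 and 156 at - Fe, without overlap (log2 0.31 ± 0.14, adjusted p = 0.571). In nas4x-1 they were 98.4, 129 and 122 at + Fe and 93.6, 124 and 106 at - Fe, which overlap. At - Fe the genotypes did not overlap, and the log2 difference was -0.49 ± 0.14 (adjusted p = 0.274), with the interaction at -0.40 ± 0.198 (adjusted p = 0.887). HMA5 and HMA7, but not the copper pump HMA6, thus had a higher mean in wild-type leaves at - Fe than in the other 3 leaf groups, without passing the test. In wild-type leaves 2 of 8 probe sets were higher at - Fe without overlap (7.09% of all) and 1, the dim HMA3, was lower (8.12% of all). Between the genotypes at - Fe, 2 of 8 were lower without overlap (6.47% of all) and 0 were higher (7.76% of all).

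HMA6 had a different leaf pattern in the brighter of its probe sets, the one that separated the organs. Its leaf signals were 209, 141 and 157 in nas4x-1 at + Fe and 189, 265 and 295 at - Fe. The groups overlapped through week 1, and the log2 difference was 0.52 ± 0.201 (adjusted p = 0.595), with weekly values of -0.13, 0.84 and 0.85. In nas4x-1 at - Fe it was higher than in wild type by 0.47 ± 0.201 (adjusted p = 0.519). The dimmer probe set did not show this, with means of 41.8 ± 9.8 at + Fe and 42.4 ± 12.4 at - Fe in nas4x-1 leaves.

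The genotypes were compared in leaves at + Fe, where HMA2 had the smallest adjusted p of the family without passing the test. Its signals were 72.4, 75.4 and 80.1 in wild-type leaves at + Fe and 88.4, 165 and 158 in nas4x-1 leaves at + Fe. All 3 nas4x-1 arrays were above all 3 wild-type arrays, with means of 137 ± 42.3 and 75.9 ± 3.9, and the lowest of them by a small margin. The log2 difference was 0.69 ± 0.223 (95% interval 0.21 to 1.18, adjusted p = 0.739), where 0 of 8 and 0.0264% of all probe sets passed, with 1 of 8 and 5.64% at an unadjusted p under 0.05. It was 1 of 8 higher without overlap (4.98% of all), and 0 were lower (5.28% of all).

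The same nas4x-1 arrays at + Fe entered the comparison with nas4x-1 at - Fe, where HMA2 measured 92.3, 76.3 and 57. The log2 difference between - Fe and + Fe was -0.72 ± 0.223 (adjusted p = 0.435), with weekly values of 0.05, -0.97 and -1.26 and an overlap of the groups in week 1. Of 8 probe sets 0 passed (0.0659% of all), with 2 (HMA2 and HMA6) and 7.49% of all at an unadjusted p under 0.05, and none was without overlap (5.61% of all higher, 5.56% lower). In wild-type leaves HMA2 measured 58.1, 72.9 and 83.3 at - Fe, which overlaps with + Fe. The interaction was -0.64 ± 0.315 (95% interval -1.33 to 0.05, adjusted p = 0.887). At - Fe the genotypes differed in 0 of 8 probe sets (0.0659% of all), with 3 (HMA5, HMA6 and HMA7) and 9.17% of all at an unadjusted p under 0.05, and HMA2 had near equal means of 71.4 ± 12.6 and 75.2 ± 17.7.

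**Figure D4:**
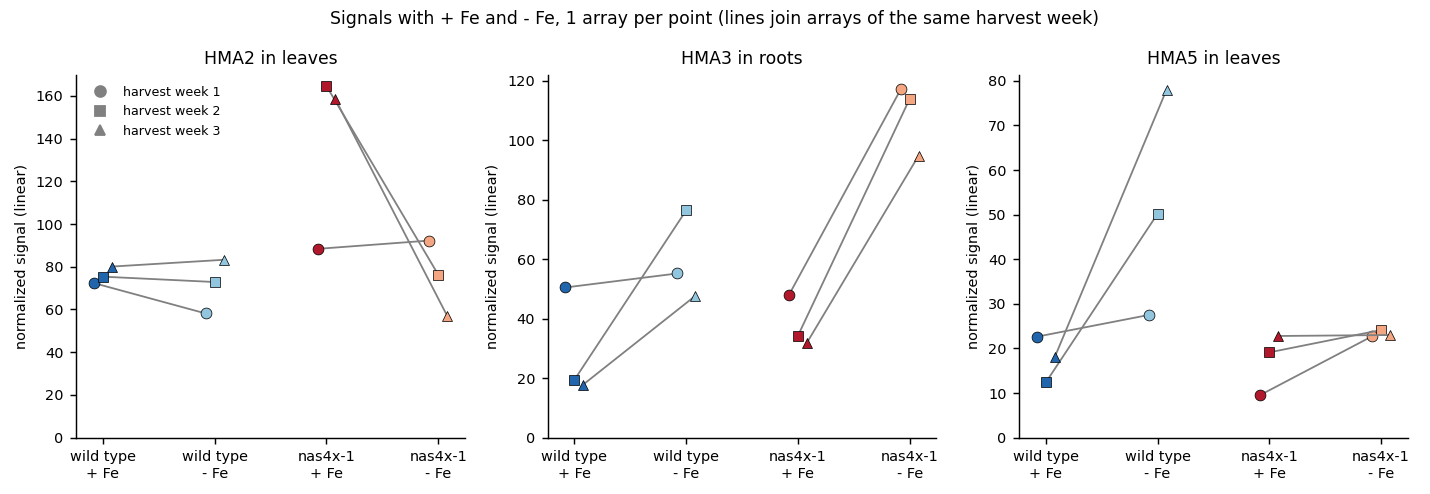
Normalized signal (linear, from 0) of HMA2 in leaves, HMA3 in roots and HMA5 in leaves, with grey lines joining the + Fe and - Fe arrays of 1 genotype from the same harvest week. HMA3 goes up in all 6 pairs, from 0.10 to 1.39 on the log2 scale, HMA5 goes up in wild type with little change in week 1 (0.17), and HMA2 goes down in nas4x-1 in weeks 2 and 3 but not in week 1 (0.05).

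Averaged over the genotypes, 0 of 8 probe sets passed between - Fe and + Fe leaves (0.334% of all), with 4 of 8 and 11% of all at an unadjusted p under 0.05, and HMA5 had the largest value, 0.61 ± 0.181 (adjusted p = 0.219). Averaged over the Fe supplies, 0 of 8 passed between the genotypes (0.106% of all), with 2 of 8 and 9.55% of all at an unadjusted p under 0.05. HMA1 and HMA4 had differences between -0.16 and 0.05 in the 4 pairwise comparisons of leaves. The medians of the 8 probe sets were 0.03, -0.03, -0.02 and -0.04 in these comparisons, beside -0.02, 0.00, -0.00 and 0.01 over all probe sets.

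**Figure D5:**
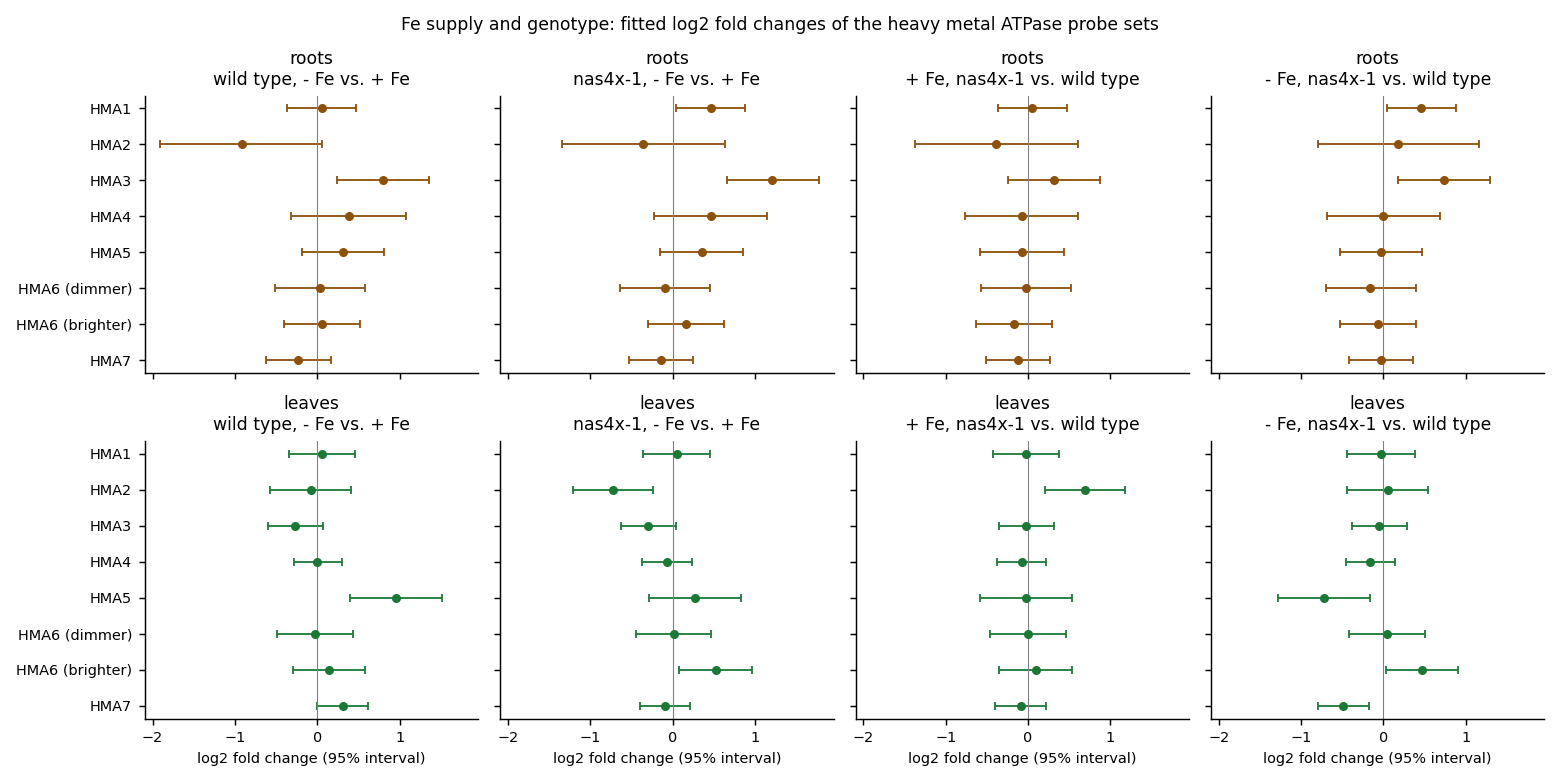
Fitted log2 fold change (points) with 95% interval for each probe set in the 8 comparisons of Fe supply and genotype, roots above and leaves below. The intervals that lie furthest from 0 are those of HMA3 in nas4x-1 roots (0.66 to 1.77) and HMA5 in wild-type leaves (0.39 to 1.51), and none of the 64 values passed the threshold after adjustment.

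The order of the 8 groups was given by the organ for most pumps. For HMA3 the nas4x-1 roots at - Fe were highest (109 ± 12) and did not overlap with the next group, wild-type roots at - Fe (59.8 ± 14.9), which overlapped with nas4x-1 roots at + Fe (38.1 ± 8.71). For HMA5 the 4 root groups overlapped with their neighbours from 242 ± 91.1 to 174 ± 7.57, followed without overlap by wild-type leaves at - Fe (51.9 ± 25.3) and nas4x-1 leaves at - Fe (23.3 ± 0.745). For HMA2 only the highest group, nas4x-1 leaves at + Fe (137 ± 42.3), was free of overlap with the next, and the other 7 groups, from 75.9 ± 3.9 to 25.1 ± 5.64, each overlapped with their neighbour.

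The harvest week was a clear source of spread in roots. Week 1 was above the group mean on 4 of 4 root arrays for HMA2 (log2 0.43 on average), HMA4 (0.49), HMA5 (0.28) and both HMA6 probe sets (0.33 and 0.26), whereas HMA2 in week 3 was below it on 4 of 4 arrays (-0.53). Over the 12 root arrays HMA4, HMA5 and the 2 HMA6 probe sets had a Pearson r between 0.708 and 0.895 in each pair, the highest for HMA4 and HMA5 (Spearman 0.832). HMA2, although also high in week 1, had an r between -0.0842 and 0.339 with these. For the deviations from the group means, the r of HMA2 was higher with HMA4 (0.649) and HMA5 (0.266). It was 0.399 with the dimmer and 0.317 with the brighter HMA6 probe set. These correlations are over arrays that share groups and weeks. In leaves the 2 HMA6 probe sets had an r of only 0.255, the strongest relation was a negative one between HMA1 and HMA6 (dimmer), with r = -0.731, and the copper pumps HMA5 and HMA7 had an r of 0.699 (Spearman 0.601).

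Other zinc genes gave a background for HMA2, HMA3 and HMA4. The list of zinc transport and zinc deficiency genes had 20 members, 17 of them matched to a probe set. In roots, 1 of 17 passed in a comparison of Fe supply or genotype: ZIP4, a zinc uptake transporter, was higher in nas4x-1 by 1.04 ± 0.144 over both Fe supplies (adjusted p = 0.0118), where 0.136% of all probe sets passed. At an unadjusted p under 0.05 (limma) there were between 1 and 8 of 17 per root comparison, beside 1.53% to 6.54% of all probe sets. The highest count, 8 of 17, was that between the genotypes over both Fe supplies (2.62% of all). Without a pass, MTP3 differed with - Fe by 1.77 in wild type (adjusted p = 0.733) and 1.39 in nas4x-1 (adjusted p = 0.867), and the zinc transporter ZIP2 by -1.62 (adjusted p = 0.733) and -1.68 (adjusted p = 0.536). FRD3, which loads citrate into the xylem, differed between the genotypes by 1.64 at + Fe (adjusted p = 0.648). The median of the list between the genotypes was 0.46 at + Fe and 0.53 at - Fe in roots, beside -0.00 and 0.01 over all probe sets. For HMA3 the values were 0.32 at + Fe and 0.73 at - Fe, for HMA2 -0.39 and 0.18, and for HMA4 -0.08 and 0.00.

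In leaves 0 of 17 zinc genes passed in any comparison of Fe supply or genotype with limma, with between 1 and 6 at an unadjusted p under 0.05, beside 5.64% to 11% of all probe sets. The highest of these counts, 6 of 17, was that between the genotypes at + Fe (5.64% of all). The largest values were those of ZIP5 (-2.00) and IRT3 (-1.37), both zinc transporters, in nas4x-1 at - Fe against + Fe. ZIP5 measured 105, 290 and 234 in nas4x-1 leaves at + Fe and 23.8, 73.8 and 24.1 at - Fe, and like HMA2 it was highest in weeks 2 and 3 of nas4x-1 at + Fe. Over the 12 leaf arrays ZIP5 had the highest r with HMA2 of the 17 zinc genes (0.765), followed by ZIP4 (0.758) and IRT3 (0.736). The Spearman values were only 0.413, 0.441 and 0.427, and without the 2 arrays farthest from the median of each the r fell to 0.211, 0.158 and 0.124, so these 3 relations rested on few arrays. The next in order were ZIP1 (r = 0.695, Spearman 0.748) and FRD3 (0.689 and 0.599). Without the 2 arrays farthest from their medians the r was 0.765 and 0.788. For ZIP1 these were the week 3 arrays at - Fe, 43.3 in nas4x-1 and 47.7 in wild type. For FRD3 they were nas4x-1 at - Fe in weeks 1 and 3, at 1.45 and 1.46. The 2 nas4x-1 + Fe arrays with the highest HMA2 stayed in, so whether these relations rested on them was not tested. The r of the deviations from the group means was 0.493 for ZIP1 and 0.238 for FRD3, which was dim in leaves (1.45 to 18.4).

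The list of copper transport and copper protein genes had 23 members, of which 7 were matched to a probe set. It therefore says little of copper as a whole. The others can still be on the array, since 8633 probe sets had no gene name here. The study lists CCH, CSD2 and FSD1 among its called genes, and these were not matched here. Of the 7 matched genes, 1 passed, CCS, the copper chaperone of superoxide dismutase. It was higher in nas4x-1 leaves at - Fe by 1.98 (adjusted p = 0.0243, where 0.0659% of all passed) and over both genotypes by 1.72 (adjusted p = 0.00173, where 0.334% of all passed), and in wild-type leaves the difference was 1.45 (adjusted p = 0.0602). CCS measured 137, 222 and 116 in nas4x-1 leaves at + Fe and 731, 624 and 598 at - Fe, while HMA5 stayed at or below 24.2 on the same arrays. In roots 0 of 7 copper genes passed, with at most 1 at an unadjusted p under 0.05 in each comparison (1.53% to 6.54% of all probe sets), and the largest value was that of the copper uptake transporter COPT2 with - Fe (1.34 in both genotypes). Over the 12 leaf arrays HMA5 and CCS had an r of 0.553, and that of the deviations from the group means was -0.268.

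The genes whose pattern was most like that of HMA2 and HMA5 were looked up among probe sets with 1 gene and a mean signal of at least 50 in the organ, as the 4 with the highest Pearson r over 12 arrays. In roots HMA5 was followed by AT5G57910 (r = 0.97), PUB24 (0.959), AT1G55960 (0.952) and GAT1_2.1 (0.951) of 5475 candidates, and HMA2 by AT1G76460 (0.861), AT5G67630 (0.844), AME3 (0.831) and AT5G55210 (0.829) of 5476. In leaves HMA5 was followed by AT5G62710 (0.912), AT3G16560 (0.891), AT5G57410 (0.89) and AT1G08050 (0.888) of 5444, and HMA2 by CRK (0.871), AT1G03820 (0.868), AT5G52390 (0.862) and AT4G12490 (0.798) of 5443. For HMA2 in leaves the Spearman values of the last 3 were 0.448, 0.371 and 0.357. None of these genes was on the zinc or copper lists, which says little, as only 4 genes were taken from all candidates in each case. Each r is among the highest of all candidates, over arrays that share groups and weeks.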

How the data were processed

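The deposited signal intensities were made by the authors with MAS 5.1 and GCOS, scaled to a target signal of 100 and normalized by quantiles, 1 value per probe set and array (linear). Their column medians lay between 37.8 and 38.03. Of 22810 probe sets 64 controls were left out. Genes were named from the platform table, and the heavy metal ATPases from the study's list of metal homeostasis genes. This left 8633 probe sets without a gene name. A gene without a match, HMA8 included, can therefore still have a probe set on the array. Here the signals were quantile normalized again within each organ (no value moved by over 0.0509 on the log2 scale) and compared on log2(signal + 16) by limma (version 3.58.1, R 4.3.3) with a variance trend on intensity, using 4 groups of 12 arrays per organ and all 24 arrays for organ comparisons. The test was checked on simulated data with independent arrays. The simulation had no shared harvest week, so it does not cover the correlation between arrays of the same week. The members and lists were chosen with earlier results of these data known. A member's change was named where it passed or was at least 0.5 (log2), besides values given for completeness.

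Replicate numbers are the harvest weeks and pair the arrays. Same-week residuals correlated at 0.212 to 0.64 (roots; other weeks up to 0.211) and 0.172 to 0.505 (leaves; other weeks up to 0.121). The week was a block in an alternative. Other alternatives were the offset, the normalization, the trend, the ANOVA error model of the methods, a filter on the dimmest 40%, fewer groups in the fit and each array left out. Contrasts of organ by Fe supply or genotype were added after the data were seen.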

Additional observations from a re-analysis of the deposited data

How the results depend on the processing

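No result changed its direction. The number of heavy metal ATPase probe sets called stayed at 0 within each organ, with offsets of 1 and 32, the values as deposited, quantile normalization over all 24 arrays, no trend, the ANOVA error model, the dimmest 40% left out, and the fit of 2 groups alone, and it moved in the following cases. With the replicate block (harvest week) it was 1 for the mean Fe effect in roots and 1 for organ by Fe supply in nas4x-1 (HMA3 in both). Of all probe sets 0.47% and 0.0747% passed there, beside 0.0528% and 0.0044% without the block. The pairing changed no other call. With 1 array left out it ranged from 0 to 1 for the mean Fe effect in roots, from 0 to 1 for Fe supply in wild-type leaves and from 0 to 1 for organ by Fe supply in wild type. For the mean Fe effect this was HMA3 without wild-type roots + Fe replicate 1 (1.16, with 21 of 22746 probe sets called). It was also HMA3 without wild-type roots - Fe replicate 3 (1.06, with 106 called). For organ by Fe supply it was HMA3 without wild-type roots + Fe replicate 1 (-1.38, with 24 called). In wild-type leaves it was HMA5 without wild-type leaves - Fe replicate 1 (1.24, with 165 called). With all arrays 12, 20 and 40 probe sets were called in these 3 comparisons. For leaves against roots it ranged from 6 to 7 in 3 comparisons and stayed at 6 in wild type at + Fe. Under the ANOVA error model nas4x-1 at - Fe gave 5 in place of 7, since HMA2 (adjusted p = 0.0873) and HMA1 (0.0645) no longer passed. The share of all probe sets that passed under that model is not given here. The filter on dim probe sets removed HMA3 in leaves. The cause of these changes was not tested. Low signals limit HMA3 and HMA5 in leaves and HMA2 in roots, and 3 arrays per group limit all.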
